A study of Mus musculus with 64 samples.

Results

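The promoters of protein-coding genes were examined as 21951 windows of 1001 bp, each centred on the start of 1 gene record in the GENCODE annotation of mm10 and reaching 500 bp to either side. A promoter was called occupied in a library when a peak summit, the point of highest signal in a peak, lay inside its window. Because many windows overlapped, they formed 20538 separate stretches that covered 0.767% of the genome. Of 12175735 peaks in 60 libraries, 265285 had their summit in a promoter and 11910450 lay elsewhere. The rule used only the annotation, so all occupancy values below are measurements.

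The study asked how the amount of SOX2 alters where the WNT effectors bind as pluripotent cells become caudal epiblast. ChIP-seq, which sequences the DNA pulled down with an antibody to 1 protein, was available for 5 targets in 4 conditions with 3 biological replicates each. The targets were SOX2, β-catenin and the DNA-binding proteins LEF1, TCF7L1 (labelled TCF3) and TCF7L2 (labelled TCF4), and 4 further samples were input DNA without a peak list here. The wild-type cells were HM1 mouse embryonic stem (ES) cells of 129 background, an XY line that carries the TetON system. They were profiled as naive ESC, kept in 2i medium, and as CEpiLC, caudal epiblast-like cells made with FGF, the WNT secretion inhibitor LGK974 and, on the last day, the GSK3 inhibitor CHIR99021. The second line, SOX2-TetON, had its endogenous Sox2 ablated and carried a doxycycline-driven Sox2 transgene at Hprt with the rtTA activator at Rosa26. It was propagated with doxycycline at 1 µg/ml and differentiated like CEpiLC with the drug kept (SOX2-ON) or withdrawn (SOX2-OFF). The paper holds that SOX2 detected in SOX2-OFF probably reflects a little protein that outlasted the drug, which was not tested here. All groups were labelled 72 h, and all had been exposed to CHIR99021, which is also part of 2i. Only 1 engineered line was used, so line and allele cannot be told apart. Below, high SOX2 means naive ESC or SOX2-ON cells, and low SOX2 means CEpiLC or SOX2-OFF cells, as the design set them. Expression was not measured in these files, so cell identity was not checked on RNA. Of 12 promoters of feeder fibroblast genes 1 was ever occupied (8.33%, beside 18.3% of all promoters). This cannot show whether feeder cells were present, since only binding of the 5 targets was measured. In bulk chromatin, fewer bound cells and weaker binding per cell cannot be told apart.

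A promoter is the stretch around a gene's start where the transcription machinery assembles, and many mouse promoters are CpG islands, rich in C and G and mostly free of DNA methylation. SOX2 is an HMG-box factor that maintains pluripotency with OCT4 and reads a short word beginning like that of the TCF family. When WNT signals, β-catenin enters the nucleus and binds DNA through the HMG-box proteins LEF1, TCF7L1 and TCF7L2, of which TCF7L1 is best known as a repressor in ES cells.

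Sequences are shown for the promoters on which the results turn, read from GRCm38 (mm10) at the median summit of the named target and printed 5′ to 3′ on the strand of the gene. The first set comes from promoters occupied in 7 to 12 of 12 β-catenin libraries, and the capitals mark the TCF word searched, CTTTGAT or CTTTGAA on either strand. This word lay within 100 bp of 4.27% of all gene starts. Fgfr1 encodes an FGF receptor (chr8:25513418-25513518, + strand, upstream of the gene), Pef1 a calcium-binding adaptor (chr4:130102340-130102440, + strand, upstream), Lin28a an RNA-binding inhibitor of let-7 maturation (chr4:134018846-134018946, − strand, upstream) and T the T-box factor brachyury (chr17:8434109-8434209, + strand, upstream). The remaining stretches were limited to 30 bases around the word. Sp5 encodes a zinc-finger factor and classic WNT target (chr2:70474961-70474990, + strand, summit in the UTR), Gtf2b the general factor TFIIB (chr3:142765002-142765031, + strand, upstream), Tnfrsf19 a receptor of the TNF family (chr14:61046312-61046341, − strand, summit in the UTR) and Ccnd1 a D-type cyclin (chr7:144939893-144939922, − strand, summit just upstream).
Fgfr1: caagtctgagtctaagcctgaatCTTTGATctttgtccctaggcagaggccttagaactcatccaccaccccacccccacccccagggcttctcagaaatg
Pef1: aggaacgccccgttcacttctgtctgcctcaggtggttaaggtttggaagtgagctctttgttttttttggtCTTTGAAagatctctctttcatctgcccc
Lin28a: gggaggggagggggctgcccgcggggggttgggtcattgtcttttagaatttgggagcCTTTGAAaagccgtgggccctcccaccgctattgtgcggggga
T: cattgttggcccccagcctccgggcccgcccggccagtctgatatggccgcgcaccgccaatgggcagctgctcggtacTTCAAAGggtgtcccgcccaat
Sp5: gagctttgtggaTTCAAAGgatttgctttc
Gtf2b: ctgcctccggagATCAAAGgggtgtgctat
Tnfrsf19: ctcagccttgcCTTTGATgcgcagcaactg
Ccnd1: tctctgcccggCTTTGATctctgcttaaca

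The second set comes from SOX2-occupied promoters, with capitals at the SOX word, CATTGT or CTTTGT on either strand, found within 100 bp of 15.9% of all gene starts. The SOX and TCF words begin alike, but neither contains the other. Mtf2 encodes a Polycomb accessory protein (chr5:108065551-108065651, + strand, upstream), Nanog a homeodomain pluripotency factor (chr6:122707375-122707475, + strand, upstream) and Mobp a myelin protein (chr9:120149524-120149624, + strand, upstream, with 2 copies of the word).
Mtf2: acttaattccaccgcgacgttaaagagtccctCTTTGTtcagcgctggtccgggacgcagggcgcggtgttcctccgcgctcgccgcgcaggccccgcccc
Nanog: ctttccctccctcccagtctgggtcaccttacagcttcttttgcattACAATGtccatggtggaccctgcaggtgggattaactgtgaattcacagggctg
Mobp: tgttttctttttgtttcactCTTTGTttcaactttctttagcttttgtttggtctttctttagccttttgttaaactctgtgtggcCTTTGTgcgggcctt

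The third set comes from promoters occupied in every TCF7L2 library, with capitals at the 8-base word TCGCGAGA on either strand, which stood within 100 bp of 1.13% of all starts. The word was chosen after the sequences of these promoters had been seen, and it overlaps neither of the other words. Where 10 letters are in capitals the word is present on both strands. Denr encodes a translation re-initiation factor (chr5:123907185-123907214, + strand, summit in the UTR), Qrich1 a glutamine-rich protein (chr9:108517050-108517079, + strand, summit in the UTR) and Cdk12 a kinase of RNA polymerase (chr11:98202715-98202744, + strand, upstream). Rps7 (chr12:28635878-28635907, − strand, summit in the UTR), Rps6 (chr4:86857398-86857427, − strand, summit in an intron) and Rpl4 (chr9:64173123-64173152, + strand, upstream) encode ribosomal proteins, and Rps6 and Rpl4 were chosen after their values were seen.
Denr: gcacggtggcgTCTCGCGAcatcctcctag
Qrich1: gacgctccggtTCTCGCGAGAagggccttc
Cdk12: gtccagcggagTCTCGCGAtacttgcggca
Rps7: atgagccgtTCTCGCGAGAgccgtccctct
Rps6: gccggctgtTCTCGCGAGAacttagagcgc
Rpl4: aaagataatTCTCGCGAGAgttgtgacgag

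Peak lists ranged from 1628 to 991719 peaks, and their read depth is unknown, since a peak list carries no counts. Each list was therefore cut to its strongest 3000 peaks by the deposited fold (signal at the summit over local background), and full lists were used beside it. TCF7L1 CEpiLC replicate 1 had fewer than 3000 peaks, and all 1628 were kept. LEF1 naive ESC replicate 1 stood apart, with 24 occupied promoters against 77 and 71 in the other replicates and the TCF word at 13% of its promoter summits. TCF7L1 SOX2-ON replicate 1 had this word at 15.4% of its promoter summits, against 61.7% and 61.2% in the other replicates, and 41 occupied promoters against 63 and 51.

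Among the strongest 3000 peaks, 4026 promoters (18.3%) were occupied in at least 1 of 60 libraries, 1558 of them in exactly 1, and 17925 in none. A full list, with no limit on peaks, occupied between 0.21% and 59.0% of all promoters (mean 30.1% for SOX2). Of the 4026 promoters, 897 were occupied in 10 or more libraries, 58 in 20 or more and 10 in 40 or more. The promoters ever occupied by TCF7L2 numbered 2807 and those ever occupied by SOX2 1115, while LEF1 had 559, TCF7L1 417 and β-catenin 370. Of the 370 β-catenin promoters only 39 were occupied by no other target, compared with 2195 of the 2807 TCF7L2 promoters.

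Among the strongest 3000 peaks TCF7L2 occupied more promoters than any other target. A mean of 1163 promoters per library was occupied by TCF7L2, 229 by SOX2, 93.1 by β-catenin, 91.4 by LEF1 and 78.2 by TCF7L1 (n = 12 libraries each). Between 23.4% and 45.5% of the strongest TCF7L2 peaks lay in promoters, compared with 2.53% to 14.4% of SOX2 peaks, 1.33% to 6.40% of β-catenin peaks, 0.767% to 7.07% of LEF1 peaks and 1.30% to 5.17% of TCF7L1 peaks. TCF7L2 exceeded each other target, and SOX2 exceeded β-catenin, LEF1 and TCF7L1, in exact permutation tests within conditions (p = 1.25e-05 in each case, the smallest these can give, adjusted p = 1.786e-05 over 10 pairs, two-sided). The 3 remaining targets were not separated, with differences of 1.67 (β-catenin against LEF1, adjusted p = 0.884), 14.8 (β-catenin against TCF7L1, adjusted p = 0.374) and 13.2 promoters (LEF1 against TCF7L1, adjusted p = 0.529, exact permutation tests). Without LEF1 naive ESC replicate 1 the first of these was −2.50, and without the short TCF7L1 list the others were 6.29 and 4.62, none of which passed. Over full lists the order was another, with a mean of 6612 occupied promoters for SOX2 and 5089 for TCF7L2, above 3369 (β-catenin), 3176 (LEF1) and 2810 (TCF7L1), which was not tested.

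**Figure D1:**
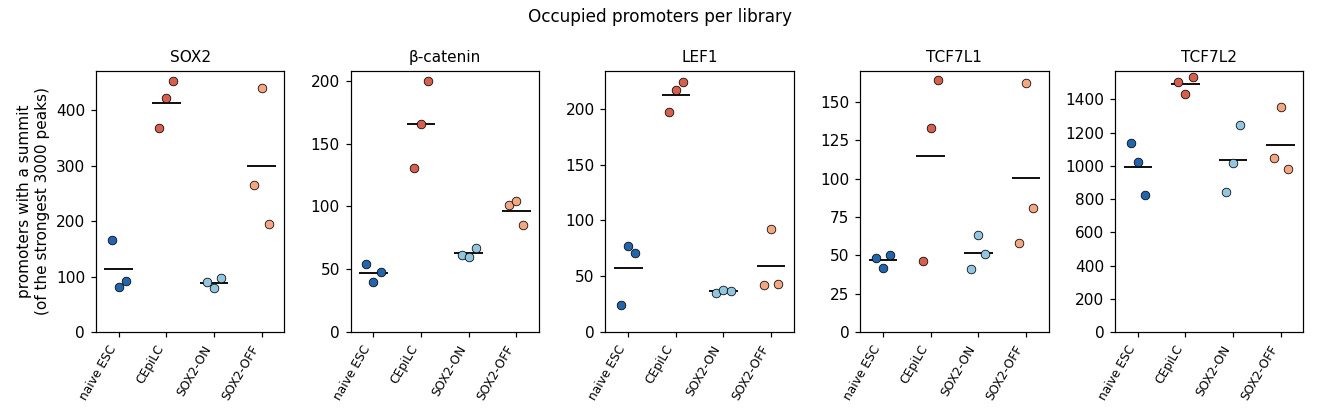
Promoters with a summit among the strongest 3000 peaks, 1 panel per target and 1 point per library (3 per condition), with the condition mean as a horizontal line and a separate linear axis from 0 in each panel. SOX2, β-catenin and LEF1 points for CEpiLC lie above all points for naive ESC, and the TCF7L2 axis reaches values of 827 to 1537.

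The share of TCF7L2 peaks in promoters depended on rank. Of the 500 strongest peaks of a TCF7L2 library, 73.95% ± 3.38 (SD, n = 12) lay in promoters. The share was 44.4% ± 5.46 in the next 500, 29.7% ± 9.61 in the 500 after those, 18.5% ± 10.85 at ranks 1501 to 3000 and 6.18% ± 3.03 at ranks 3001 to 10000 (n = 10 lists of that length). For the other targets the mean share stayed between 1.78% and 9.19% in every bin, and for SOX2 it was higher among weaker peaks, at 5.50% ± 4.16 in the first bin and 9.19% ± 4.72 in the last (n = 12). TCF7L2 peaks in promoters had a median fold of 5.46 over full lists and other TCF7L2 peaks 4.61, a difference of 0.24 on the log2 scale that was positive in 12 of 12 libraries (exact sign-flip permutation test, p = 0.000488, the smallest it can give, adjusted p = 0.00244, two-sided, 5 targets). The log2 differences of the other targets were between −0.11 (β-catenin, adjusted p = 0.116) and 0.05 (SOX2, adjusted p = 0.217) and did not pass this permutation test. Among peaks of −log10 q of at least 5 the same difference was −0.19 for β-catenin, −0.12 for TCF7L1, −0.07 for LEF1 and −0.05 for SOX2, and each passed.

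**Figure D2:**
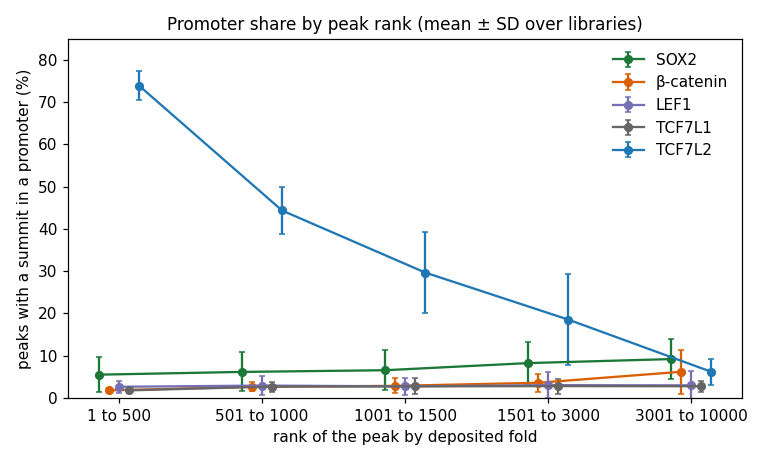
Share of peaks with a summit in a promoter (percent, linear axis) by rank of the peak in its list, as mean and SD over the libraries of each target that reach the rank. TCF7L2 starts at 73.95% in ranks 1 to 500 and ends at 6.18% in ranks 3001 to 10000, while the other targets have means between 1.78% and 9.19%.

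Position within the window also separated TCF7L2. The median TCF7L2 summit lay at −19.9 ± 6.11 bp from the start (negative values upstream, SD, n = 12), and 49.6% ± 2.31 of its summits within 500 bp lay within 100 bp of it. The density of summits within 500 bp was 18.5 ± 1.79 times that beyond 1000 and up to 2000 bp. SOX2 had a ratio of 3.82 ± 1.94, β-catenin 1.89 ± 0.808, LEF1 1.88 ± 0.939 and TCF7L1 1.62 ± 0.736. SOX2 summits lay on the upstream side, with a median of −80.9 ± 19.8 bp and 70.5% ± 5.01 of them upstream of the start.

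**Figure D3:**
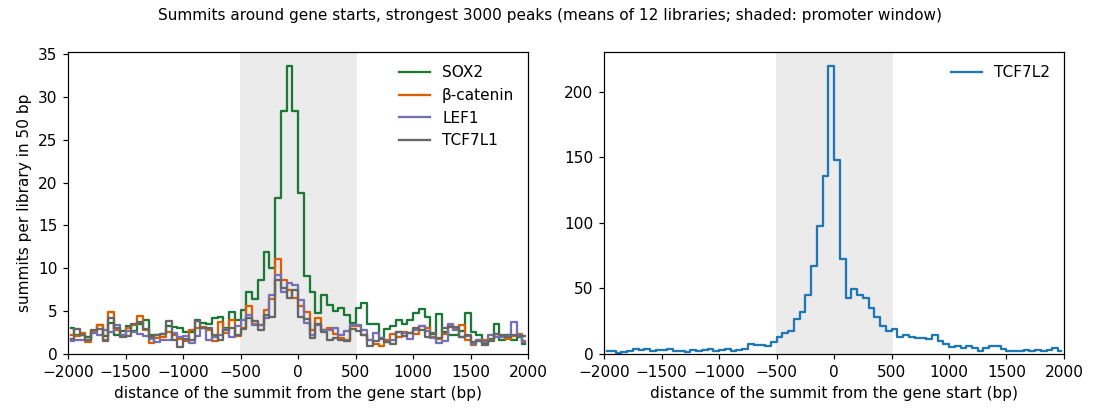
Summits per library in bins of 50 bp by distance from the gene start (negative values upstream), as means of 12 libraries, with SOX2, β-catenin, LEF1 and TCF7L1 on the left and TCF7L2 on the right on a larger axis. Every start within 2000 bp of a summit was counted, and the shaded band is the promoter window. TCF7L2 has a sharp maximum at the start, SOX2 a lower one upstream, and the other 3 targets low broad ones.

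Occupied promoters were richer in CpG than promoters at large. A window was called CpG-rich when its GC share was at least 0.5 and its observed over expected CpG ratio at least 0.6, which held for 44.4% of all promoters and 36.9% of those never occupied. It held for 84.7% of the promoters ever occupied by TCF7L2, 73.8% for SOX2, 61.6% for β-catenin, 58.3% for TCF7L1 and 57.6% for LEF1. Promoters of low-SOX2 libraries were more often CpG-rich than those of high-SOX2 libraries for 4 targets. The mean shares were 65.2% in high and 74.7% in low SOX2 for SOX2 (adjusted p = 0.0167), 55.3% and 68.9% for β-catenin (adjusted p = 0.025), 46.7% and 65.0% for LEF1 (adjusted p = 0.0167) and 49.2% and 61.2% for TCF7L1 (adjusted p = 0.0167, exact permutation tests within cell lines, two-sided). For TCF7L2 they were 88.8% and 88.6% (adjusted p = 0.745, exact permutation test). With full lists none of the 5 differences passed, with that of TCF7L1 at 0.214 and that of TCF7L2 at −3.10 percentage points, both with turned sign.

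The number of occupied promoters was compared between conditions next. For SOX2 the counts were 166, 81 and 92 in naive ESC (replicates 1 to 3) and 368, 422 and 453 in CEpiLC. In the engineered line they were 90, 79 and 98 in SOX2-ON and 265, 440 and 195 in SOX2-OFF. In neither line did the groups overlap, and the low-SOX2 cells had the larger number in both.

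For β-catenin the counts were 54, 40 and 48 in naive ESC and 131, 166 and 200 in CEpiLC, beside 61, 60 and 67 in SOX2-ON and 101, 104 and 85 in SOX2-OFF. For LEF1 they were 24, 77 and 71 in naive ESC and 197, 217 and 224 in CEpiLC, beside 35, 38 and 37 in SOX2-ON and 42, 92 and 43 in SOX2-OFF. Neither target had overlapping groups within a line. TCF7L1 had 48, 42 and 50 in naive ESC and 46, 133 and 164 in CEpiLC, beside 41, 63 and 51 in SOX2-ON and 58, 162 and 81 in SOX2-OFF, so that both of its contrasts overlapped. TCF7L2 had 1137, 1023 and 827 in naive ESC and 1506, 1430 and 1537 in CEpiLC, beside without overlap, and 843, 1020 and 1245 in SOX2-ON and 1050, 1354 and 979 in SOX2-OFF, which overlapped.

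The smallest p of an exact permutation test of 3 libraries against 3 is 0.1, so no single contrast could pass 0.05. Naive ESC minus CEpiLC was −301 promoters with the SOX2 antibody, −118 for β-catenin, −155 for LEF1 and −495 for TCF7L2 (p = 0.1, adjusted p = 0.125 each, two-sided exact tests) and −67.7 for TCF7L1 (p = 0.3, exact test). In the engineered line the difference was −211 promoters with the SOX2 antibody, −34.0 for β-catenin and −22.3 for LEF1 (p = 0.1, adjusted p = 0.167 each, exact tests), −48.7 for TCF7L1 (p = 0.2) and −91.7 for TCF7L2 (p = 0.6, exact tests). Without the LEF1 library that stood apart the first contrast of LEF1 was −139, and without the short TCF7L1 list that of TCF7L1 was −102 (p = 0.1 each, exact tests). Without the libraries numbered 2 the doxycycline difference was −136 for SOX2, −6.50 for LEF1, −23.5 for TCF7L1 and 29.5 for TCF7L2, the last with turned sign. Without SOX2-ON replicate 1 alone TCF7L1 gave −43.3.

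Across both lines, high minus low SOX2 gave a negative difference that passed for every target. SOX2 differed by −256 promoters, β-catenin by −76.2 and LEF1 by −88.8 (p = 0.005, the smallest that 400 assignments within lines allow, adjusted p = 0.00833 each, exact permutation tests). It was −58.2 for TCF7L1 (p = 0.035, adjusted p = 0.035) and −294 for TCF7L2 (p = 0.03, adjusted p = 0.035, exact permutation tests). Without the library that stood apart LEF1 gave −80.5 (adjusted p = 0.00833), and without the short list TCF7L1 gave −75.2 (adjusted p = 0.0125, exact permutation tests). Without SOX2-ON replicate 1 TCF7L1 gave −55.5 and no longer passed (adjusted p = 0.09, exact permutation test). With the replicate number as a block, where the smallest p is 0.03125, none of the 5 differences passed (adjusted p = 0.0521 to 0.0938, exact sign-flip permutation tests). The TCF7L1 difference no longer passed with windows of 1000 bp to either side (−67.5) or with any overlap of peak and window (−51.8), and the TCF7L2 difference no longer passed with the strongest 1500 peaks (−86.7).

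The differences of the 2 lines were themselves compared. Naive ESC and CEpiLC differed in medium and stage, SOX2-ON and SOX2-OFF in doxycycline, so line and kind of contrast cannot be told apart. For β-catenin the wild-type difference was larger than that of the engineered line by 84.3 promoters (−118 against −34.0, p = 0.005, adjusted p = 0.025, exact permutation test of line labels within SOX2 levels, two-sided). The gap was −25.3 with the strongest 1500 peaks, −89.3 with ranking by −log10 p, −100.3 with windows of 1000 bp and −99.7 with any overlap, and it did not pass under any of these. For the other targets the gap did not pass (adjusted p = 0.15 for LEF1 and TCF7L2, 0.425 for SOX2 and 0.76 for TCF7L1, exact permutation tests). It was −133 for LEF1 and −116 without its library that stood apart, and −19.0 for TCF7L1, which became −53.2 without the short list and −24.3 without SOX2-ON replicate 1.

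The rank limit bears on these counts, because lists of different length were cut at different folds. The 3000th SOX2 peak had a fold of 14.5 to 17.0 in naive ESC and 10.0 to 11.9 in CEpiLC, beside 12.9 to 15.7 in SOX2-ON and 7.02 to 11.8 in SOX2-OFF, and the part this plays in the difference was not tested. Over full lists a library had 46 to 12959 occupied promoters, and no contrast passed (log2 of the count, lowest adjusted p of 0.5625 in exact permutation tests). The full-list count followed the length of the list, with a Spearman correlation over 12 libraries of 0.61 for SOX2 to 0.91 for TCF7L1, whereas the count among the strongest 3000 had correlations from −0.67 for LEF1 to 0.22 for TCF7L1. These are descriptions, since libraries of a condition share cells and treatment.

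Sets of occupied promoters resembled each other more within a condition than between conditions. The Jaccard index, the shared promoters of a pair of libraries over all promoters of either, averaged 0.466 within and 0.215 between conditions for β-catenin. It was 0.323 and 0.151 for SOX2, 0.348 and 0.188 for TCF7L1, 0.206 and 0.0887 for LEF1 and 0.615 and 0.557 for TCF7L2. All 5 differences passed a one-sided exact permutation test over all partitions of the 12 libraries (adjusted p = 0.00013 for TCF7L1 and 8.117e-05 for the others, whose raw p was the smallest possible). With full lists the difference passed for β-catenin and was 0.0238 for SOX2, 0.0246 for LEF1, 0.000378 for TCF7L1 and 0.00685 for TCF7L2, which did not pass. The index is also lower when sets differ in size, as the counts above did between conditions. Number and identity of promoters therefore cannot be told apart by it.

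TCF7L2 kept a larger part of its promoters across conditions than the other targets did. Of 1511 promoters occupied in at least 2 of 3 TCF7L2 libraries of some condition, 726 (48.0%) were so in all 4. For SOX2 this was 14 of 453 (3.09%), for β-catenin 13 of 193 (6.74%), for LEF1 2 of 195 and for TCF7L1 13 of 127 (10.2%). The 2 of LEF1 were Fgfr1 and Cyb5r4. The 14 of SOX2 included Pef1, Lin28a, Mtf2 and Phc1, the last encoding a Polycomb subunit, and the 13 of β-catenin included Sp5, Src, Gtf2b, Fgfr1 and Cdx1. The share kept over all peaks of a target is not given, so whether these shares are particular to promoters was not tested.

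A small group of promoters was occupied in most libraries, though not by every target. Sp5 was occupied in 56 of 60, Fgfr1 and Pef1 in 52 each, Cdx1, a caudal homeobox factor, in 49, Lin28a in 48 and Src, a tyrosine kinase, in 45. Tnfrsf19 and Gtf2b followed with 44 each, and Igdcc3, a cell-surface protein of the immunoglobulin family, and 1190007I07Rik with 41 each. These 10 are the promoters with the most libraries. Among SOX2 libraries Gtf2b was occupied in 0 of 12 and Tnfrsf19 in 1, and Lin28a was occupied in 3 of 12 LEF1 libraries.

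The Sp5 promoter reached the highest β-catenin fold of this group, 145 in 1 library. Its β-catenin folds were 72.1, 29.6 and 62.9 in naive ESC and 71.3, 120 and 84.4 in CEpiLC, beside 117, 59.6 and 145 in SOX2-ON and 101, 50.3 and 132 in SOX2-OFF. The ranges overlapped in all 4 conditions. At the same promoter SOX2 had folds of 10.4, 19.5 and 10.5 in naive ESC and 39.4, 38.4 and 36.5 in CEpiLC, beside 22.6, 17.1 and 21.1 in SOX2-ON and 28.1, 15 and 66.6 in SOX2-OFF, where CEpiLC lay above naive ESC in every replicate.

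The Pef1 promoter had higher folds in high SOX2. Its β-catenin folds were 64.9, 46.7 and 67.8 in naive ESC and 66.7, 91.9 and 89.8 in SOX2-ON, against 22.3, 26.8 and 24.4 in CEpiLC and 29.8, 15 and 41.6 in SOX2-OFF. SOX2 folds there were 37.1, 44.7 and 32.1 in naive ESC and 30.6, 43.0 and 39.4 in SOX2-ON, against 12.5, 20.7 and 24.7 in CEpiLC and 12.2, 12.9 and 29.3 in SOX2-OFF. For both proteins the high-SOX2 libraries lay above the low-SOX2 libraries of the same line, without overlap. Fgfr1, by comparison, had overlapping β-catenin ranges, with 45.7, 34.6 and 46.0 in naive ESC and 32.3, 46.0 and 42.4 in CEpiLC, beside 31.8, 27.0 and 53.9 in SOX2-ON and 53.8, 20.0 and 73.3 in SOX2-OFF. Folds of different libraries depend on depth and input, so these values are descriptions.

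For β-catenin, TCF7L1 and SOX2, the promoters occupied in all 12 libraries mostly carried the TCF or SOX word. LEF1 had 0 such promoters, and the 566 of TCF7L2 are described below with another word. Of the 10 such β-catenin promoters (Sp5, Src, Gtf2b, Pef1, Lin28a, Fgfr1, Igdcc3, Vrtn, Cdx1 and Cep55), 8 had a TCF word within 100 bp of the summit, the exceptions being Src and Vrtn. The 3 of TCF7L1 (Sp5, Fgfr1 and Cdx1) all did. Of the 7 of SOX2 (Pef1, Lin28a, Stmn1, Mtf2, Phc1, Etv6 and Pipox), 6 had a SOX word and Stmn1 did not. Mtf2 had SOX2 folds of 40.7, 47.0 and 35.4 in naive ESC and 55.6, 85.9 and 152 in CEpiLC, beside 24.1, 36.8 and 47.8 in SOX2-ON and 26.2, 49.6 and 29.5 in SOX2-OFF, so that CEpiLC lay above naive ESC while SOX2-ON and SOX2-OFF overlapped.

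Over all strongest peaks the share of promoter summits with a word within 100 bp was set against that of the other summits of the same library. The TCF word stood at 49.4% of β-catenin summits in promoters and 53.6% elsewhere (adjusted p = 0.0863), at 42.8% and 38.2% for LEF1 (adjusted p = 0.114) and at 53.9% and 49.1% for TCF7L1 (adjusted p = 0.103, exact sign-flip permutation tests over 12 libraries, two-sided). For these 3 proteins promoter and other summits were not separated. The TCF7L1 difference was 5.59 percentage points without SOX2-ON replicate 1 and 3.01 without the short list, and it was 1.60 without replicate number 1, while that of LEF1 was 4.59 without naive ESC replicate 1, and none passed. For TCF7L2 the word stood at only 6.12% of promoter summits against 30.2% of others, and for SOX2 at 6.95% against 19.4%, lower in 12 of 12 libraries in both cases (p = 0.000488, adjusted p = 0.00122, exact sign-flip permutation tests). Around all gene starts the share was 4.27%.

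The SOX word stood at 58.9% of SOX2 promoter summits and 61.9% of its other summits (adjusted p = 0.137, exact sign-flip permutation test). It was less frequent in promoters for each other target, at 32.3% against 44.0% for β-catenin (adjusted p = 0.00163), 25.3% against 36.1% for LEF1 (adjusted p = 0.00488), 28.9% against 41.5% for TCF7L1 and 10.1% against 31.3% for TCF7L2 (adjusted p = 0.00122 for the last pair, exact sign-flip permutation tests). At SOX2 promoter summits the word was found in 64.2% to 73.7% of cases in naive ESC and 55.2% to 68.5% in CEpiLC, beside 66.0% to 73.6% in SOX2-ON and 33.5% to 39.9% in SOX2-OFF. The SOX2-OFF libraries, from cells without endogenous Sox2 and without doxycycline, were thus below those of all other conditions. The same held away from promoters, where the word stood at 44.1% to 51.9% of other SOX2 summits in SOX2-OFF and at 55.4% or more in every library of the other conditions. The share around all gene starts was 15.9%.

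A different word stood at part of the promoter summits found with the TCF7L2 antibody. Occupied means only a summit with this antibody. Whether TCF7L2 itself bound there, or bound through this word, was not tested. TCGCGAGA lay within 21.5% to 39.4% of TCF7L2 promoter summits (window of 100 bp to either side), with a mean of 29.8% against 2.88% at its other summits, and for the other targets the mean share at promoter summits was between 0.949% and 2.21%. In the whole window the word was present in 456 promoters (2.08% of all). Of these, 313 (68.6%) were occupied in 12 of 12 TCF7L2 libraries and 65 (14.3%) in none. Among the 21495 promoters without it, 253 (1.18%) were occupied in all 12. These are descriptions, because the word was picked from the promoters themselves.

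The 566 promoters occupied in all 12 TCF7L2 libraries lay in 473 separate windows. Of them, 438 (77.4%) had the shorter CGCGAGA within 100 bp of the summit, compared with 2.79% of all promoters and 5.41% of CpG-rich promoters near the start. Where the 8-base word was present it lay a median of 6 bp from the summit, and 26.4 bp marked the 95th percentile. In 474 of the 566 (83.7%) no other target had a summit among its strongest peaks in any library.

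The word was picked from promoters occupied in all 12 TCF7L2 libraries, so the values in this paragraph are descriptions. Its 456 promoters were occupied at a similar rate in each TCF7L2 library. That choice partly fixed the rate, since 313 of them were occupied in all 12. Between 335 (73.5%) and 363 (79.6%) of them had a summit in each TCF7L2 library, against at most 14 in any SOX2 library, 10 for LEF1, 7 for TCF7L1 and 6 for β-catenin. Among promoters occupied in all 12 libraries, those with the word had the higher median fold in 12 of 12 libraries, from 27.5 against 17.0 in SOX2-ON replicate 2 to 77.8 against 42.5 in CEpiLC replicate 2. The Denr promoter had TCF7L2 folds of 193, 203 and 175 in naive ESC and 50.8, 257 and 187 in CEpiLC, beside 172, 147 and 259 in SOX2-ON and 150, 136 and 152 in SOX2-OFF. β-catenin had no summit in this window in any of its 12 libraries, full lists included.

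**Figure D4:**
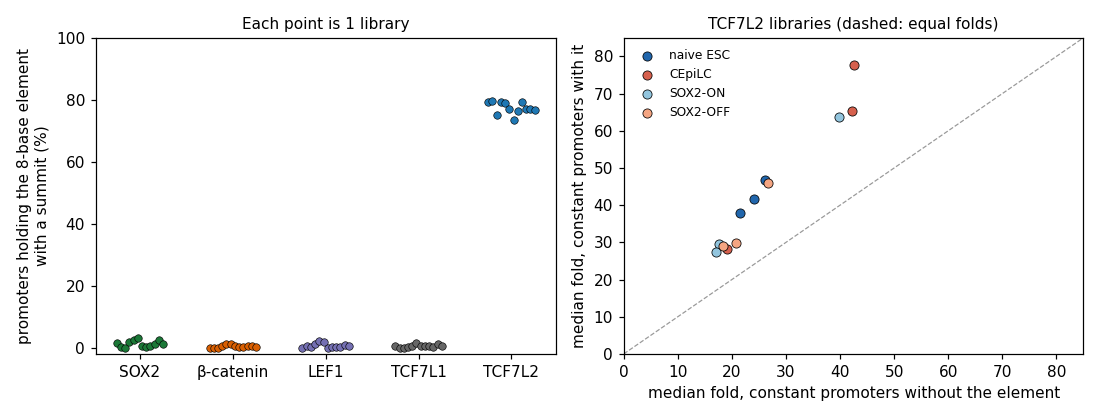
Left, percent of the 456 promoters holding TCGCGAGA that had a summit among the strongest peaks, 1 point per library. Right, median deposited fold in each TCF7L2 library at promoters occupied in all 12 libraries, with the word (vertical axis) against without it (horizontal axis). TCF7L2 libraries lie at 73.5% to 79.6% on the left and above the dashed line of equal folds on the right.

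Ribosomal protein genes were the largest listed family among them. Of 83 such promoters, 14 were occupied in all 12 TCF7L2 libraries and 16 held the word, and the 14 were all among these 16. Per condition a median of 18 to 19 of the 83 (21.7% to 22.9%) had a TCF7L2 summit, beside 4.65% to 6.86% of all promoters. Rps7 had TCF7L2 folds of 40.1, 46.3 and 37.4 in naive ESC and 34.4, 87.6 and 76.2 in CEpiLC, beside 23.1, 15.3 and 46.7 in SOX2-ON and 50.6, 30.2 and 65.9 in SOX2-OFF. Core histone promoters, which are also mostly CpG-rich (73.1% of 67), included none that was occupied in all 12 libraries and none with the word.

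Promoters of genes known to respond to WNT were described from a list of 20. Of these, 13 (65.0%) were occupied in at least 1 of 60 libraries, beside 18.3% of all promoters. For β-catenin the number per library had a median of 3 in naive ESC and 5 in CEpiLC, beside 4 in SOX2-ON and 5 in SOX2-OFF. Sp5 was occupied in 3 of 3 libraries of every condition, Znrf3, a ligase that removes WNT receptors, in 3 of 3 of CEpiLC, SOX2-ON and SOX2-OFF, and Tcf7, a further TCF factor, in 3 of 3 of SOX2-ON and SOX2-OFF. The Ccnd1 promoter had β-catenin folds of 23.9, 10.2 and 13.4 in naive ESC and 15.9, 27.8 and 17.8 in CEpiLC, beside 9.94, 8.42 and 12.7 in SOX2-ON and 17.5, 9.59 and 22.5 in SOX2-OFF, with overlapping ranges. Nkd1, an inhibitor of the pathway, was occupied by β-catenin in 3 of 3 CEpiLC libraries at folds of 14.9, 9.42 and 11.8.

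Genes of the caudal epiblast and primitive streak showed a larger contrast for β-catenin. Of 26 listed promoters, a median of 6 had a β-catenin summit in CEpiLC (range 5 to 7), 1 in naive ESC, 2 in SOX2-ON and 4 in SOX2-OFF. Cdx1 was the 1 member in naive ESC, while T, Cdx1, Wnt8a, the mesoderm factor Msgn1 and the homeobox factor Evx1 were in 3 of 3 CEpiLC libraries. SOX2 occupied 0 of the 26 in every naive ESC and SOX2-ON library and a median of 2 in CEpiLC, where T and Wnt8a were in 3 of 3. Beside this, the median for all promoters was 0.219% in naive ESC and 0.756% in CEpiLC for β-catenin, and 0.419% and 1.92% for SOX2.

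The T promoter was occupied in 3 of 3 CEpiLC libraries of every target and, among the strongest peaks, in no naive ESC library of any. Its β-catenin folds were 15 and 9.84 in naive ESC replicates 1 and 3 without a summit in replicate 2, and 34.1, 38.4 and 28.1 in CEpiLC, beside 33.3, 15.4 and 50.5 in SOX2-ON and 58.8, 14.0 and 53.8 in SOX2-OFF. CEpiLC lay above naive ESC, and the SOX2-ON and SOX2-OFF ranges overlapped. SOX2 folds at T were 6.12 and 6.56 with 1 absence in naive ESC and 10.6, 18.3 and 21.9 in CEpiLC, beside 11.3, 6.77 and 12.9 in SOX2-ON and 5.72, 4.66 and 14.8 in SOX2-OFF.

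Differential promoters were those occupied in 3 of 3 libraries of one condition and 0 of 3 of the other among the strongest peaks. The same rule applied to every merged peak of the same lists gave the background. For SOX2, 3 promoters were found only in naive ESC and 120 only in CEpiLC. Over all merged sites 9.47% were only in naive ESC and 9.68% only in CEpiLC, while of the sites with a promoter summit 0.543% and 17.0% were. Promoter sites were thus below the background in one direction and above it in the other. SOX2-ON against SOX2-OFF gave 11 and 52 promoters, with 9.75% and 5.2% of all sites and 1.69% and 7.55% of promoter sites.

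β-catenin had 12 promoters only in naive ESC and 69 only in CEpiLC, next to 16.5% and 15.9% of all sites and 4.44% and 22.9% of promoter sites. In the engineered line it had 5 with doxycycline only and 12 without it only, next to 8.18% and 5.43% of all sites and 2.4% and 5.29% of promoter sites. The SOX2-OFF share was therefore close to the background. LEF1 had 0 and 62 promoters in the first contrast (0.0248% and 8.15% of all sites, 0.0% and 15.1% of promoter sites) and 3 and 3 in the second (1.89% and 1.02% of all sites, 1.55% each of promoter sites).

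TCF7L1 was the only target with more promoters in naive ESC, at 16 against 12, but its background was 16.5% and 2.97% of all sites and its promoter sites stood at 6.67% and 4.81%. In the engineered line it had 2 and 10 (1.9% and 3.19% of all sites, 1.32% and 3.96% of promoter sites). TCF7L2 had 7 and 123 (1.39% and 3.94% of all sites, 0.284% and 5.73% of promoter sites) and then 6 and 26 (0.579% and 0.999% of all sites, 0.4% and 1.2% of promoter sites). The split depended on the lists used. With full lists it was 223 only in naive ESC and 161 only in CEpiLC for SOX2, 220 and 103 for β-catenin, and 173 and 0 for TCF7L1. In the engineered line β-catenin gave 134 with doxycycline and 3 without, LEF1 139 and 9, SOX2 200 and 151, and TCF7L2 128 and 7. For SOX2, β-catenin and TCF7L2 these counts turned the direction seen among the strongest peaks, LEF1 had no majority there, and TCF7L1 kept its direction in naive ESC. The β-catenin list of SOX2-OFF replicate 2 held only 136 promoters in full.

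Most differential promoters still had a summit in at least 1 full list of the other condition. Of the 120 SOX2 promoters only in CEpiLC, 0 were absent from all 3 full naive ESC lists, and of the 69 of β-catenin 1 was. Among those only in naive ESC, 3 of the 12 of β-catenin and 6 of the 16 of TCF7L1 were absent from the full CEpiLC lists. Full SOX2 lists occupied 4699 to 12959 promoters in naive ESC, and full TCF7L1 lists 46 to 4746 in CEpiLC. Full-list counts followed list length, so these absences are descriptions and no measure of remaining binding.

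Hoxb1, an anterior Hox gene, was found only in low SOX2 in both lines for SOX2. It was named because it was differential, so the order of its SOX2 folds restates that selection. Folds of Sulf1, Nkx6-1, Mobp, T and Jag1 are likewise no separate support for the targets and contrasts in which they were called differential. Its SOX2 folds were 7.73, 6.10 and 4.48 in naive ESC and 34.8, 79.3 and 89.5 in CEpiLC, beside 3.40, 7.46 and 8.10 in SOX2-ON and 27.3, 31.1 and 47.8 in SOX2-OFF, so that both low-SOX2 groups lay above both high-SOX2 groups. Its β-catenin folds were 16.2 and 7.57 with 1 absence in naive ESC and 29.6, 44.3 and 29.9 in CEpiLC, beside 10.6, 11.2 and 10.9 in SOX2-ON and 17.4 and 17.5 with 1 absence in SOX2-OFF. At this promoter β-catenin showed the same order as SOX2 in the libraries with a summit.

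Sulf1, an extracellular sulfatase of heparan sulfate, was found only in low SOX2 in both lines for β-catenin and LEF1. Its β-catenin folds were 8.25, 5.95 and 8.27 in naive ESC and 25.2, 17.7 and 22.4 in CEpiLC, beside 11.2, 8.67 and 11.6 in SOX2-ON and 35.5, 5.47 and 40 in SOX2-OFF. SOX2-OFF replicate 2 was below every SOX2-ON library in fold although its peak was among the strongest 3000 of that list, which had 3423 peaks in all. Nkx6-1, a neural homeobox factor, was found only in low SOX2 in both lines for LEF1 and TCF7L1 among the strongest peaks. Its LEF1 folds were 18.3, 18.8 and 16.4 in CEpiLC and 9.70, 6.74 and 17.8 in SOX2-OFF. High-SOX2 libraries with a summit had 5.74, 4.49 and 4.62 (SOX2-ON) and 5.66 and 5.68 (naive ESC). Its TCF7L1 folds were 8.25, 9.25 and 12.3 in CEpiLC, overlapping the 10.4 and 12.4 of naive ESC libraries with a summit. SOX2-OFF had 24.2, 23.8 and 23.5, above the 11.4 and 19.5 of SOX2-ON. The last ranked TCF7L1 peak had a fold of 17.0 to 38.85 in naive ESC and 1.98 to 8.125 in CEpiLC.

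Mobp was found only in high SOX2 in both lines for SOX2 and for β-catenin. Its SOX2 folds were 25.7, 42.7 and 46.8 in naive ESC and 43.4, 60.3 and 50.2 in SOX2-ON, against 4.05 and 5.96 with 1 absence in CEpiLC and 1 summit at 8.90 in SOX2-OFF. β-catenin was present at 34.1, 17.0 and 27.6 in naive ESC and 29.7, 27.5 and 22.8 in SOX2-ON, with no summit in any CEpiLC or SOX2-OFF library. TCF7L1 was present at 37.0, 30.5 and 81.1 in naive ESC and 3.71, 26.3 and 56.3 in SOX2-ON, with no summit in the low-SOX2 libraries. The window was not CpG-rich and held both copies of the SOX word printed above.

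**Figure D5:**
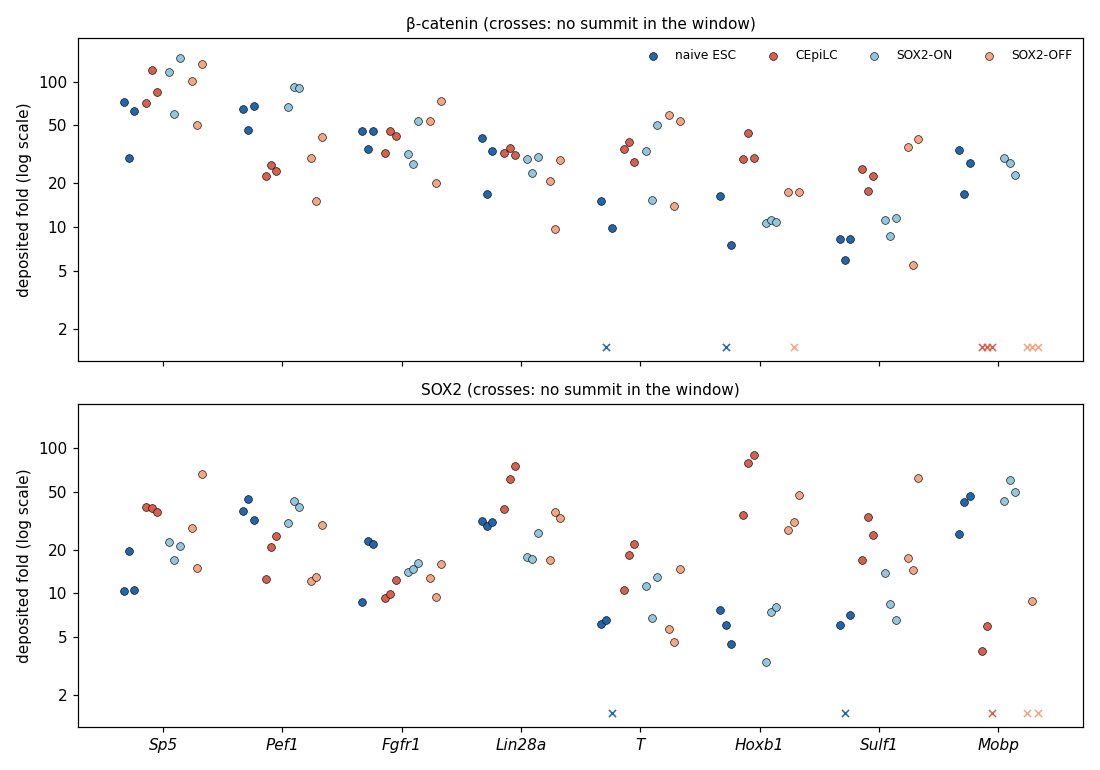
Deposited fold (log axis) at 8 promoters for β-catenin (top) and SOX2 (bottom), 1 point per library and 1 colour per condition, with crosses where a library had no summit in the window. Sp5 has the highest β-catenin fold (145), and Mobp has points above 16 only in naive ESC and SOX2-ON.

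Differential promoters of the 2 contrasts, which share no library, overlapped in part. The same overlap over all merged sites is not given, so whether it is particular to promoters was not tested. For SOX2, 12 promoters were both only in CEpiLC and only in SOX2-OFF (10.0% of 120 and 23.1% of 52), Hoxb1, Kmt2a and Fasn among them. For β-catenin 5 were (Sulf1, Sox14, Col13a1, Efemp1 and Inf2, 7.25% of 69 and 41.7% of 12), for TCF7L1 3 and for LEF1 and TCF7L2 2 each. In opposite directions 1 promoter was found for SOX2 (Myh14) and 0 for the other targets. On the high-SOX2 side Mobp was shared for SOX2, Rerg and Mobp for β-catenin and E2f3 for TCF7L2. Of the β-catenin promoters only in naive ESC 33.3% were CpG-rich, against 75.4% of those only in CEpiLC.

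Of 18 promoters of naive pluripotency genes, 5 (27.8%) were ever occupied, beside 18.3% of all promoters. SOX2 occupied a median of 1 of the 18 in naive ESC (5.56%, beside 0.419% of all promoters) and 2 in CEpiLC (11.1%, beside 1.92%). At Nanog the SOX2 folds were 26.6, 21.0 and 19.4 in naive ESC and 10.2, 17.3 and 17.1 in CEpiLC, beside 11.7, 7.02 and 9.10 in SOX2-ON and 20.8, 26.8 and 30.5 in SOX2-OFF. Within the wild-type line the high-SOX2 libraries were above, and within the engineered line they were below, without overlap in either. Klf4, a zinc-finger pluripotency factor, was occupied by TCF7L2 in 12 of 12 libraries, with folds of 11.1 to 28.9. The Sox2 promoter itself, which is the engineered locus in the second line, was occupied in 0 of 60 libraries among the strongest peaks, and its SOX2 folds in full lists were 3.54 to 6.5.

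Most promoters occupied in a given condition had 1 target, counting those occupied in at least 2 of 3 libraries. Of 1028 occupied in naive ESC 981 had exactly 1 target, as did 1497 of 1714 in CEpiLC, 950 of 1001 in SOX2-ON, and 1161 of 1267 in SOX2-OFF. TCF7L2 occupied 923 of the 1028 and 1323 of the 1714, so these counts mostly describe its promoters. The other targets shared a larger part. β-catenin and TCF7L1 shared 33 promoters in naive ESC, 75.0% of the 44 of each. In CEpiLC they shared 42 (30.2% of 139 and 68.9% of 61), and β-catenin shared 72 with LEF1 (51.8% of 139 and 38.1% of 189). LEF1 and TCF7L1 shared 52 in CEpiLC (27.5% of 189 and 85.25% of 61). SOX2 and β-catenin shared 15 in naive ESC (19.2% of 78 and 34.1% of 44) and 30 in CEpiLC (8.82% of 340 and 21.6% of 139). Promoters with all 5 targets were Fgfr1 in naive ESC, Sp5 and Pef1 in SOX2-ON, Sp5, Src, Fgfr1, 1190007I07Rik and Cdx1 in SOX2-OFF, and Sulf1, Sp5, Pef1, Lin28a, 1190007I07Rik, Hoxb1 and T in CEpiLC. Libraries of a condition may share an input, and no share over all peaks is given beside them, so these shares are descriptions.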

How the data were processed

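ChIP-seq peak lists of 60 libraries (5 targets, 4 conditions, 3 replicates) were analysed. According to the methods, the authors ran the nf-core ChIP-seq pipeline with BWA alignment to mm10 and called narrow peaks in each library with MACS2 at q below 0.05. Replicates were not pooled. Deposited per peak were a score, a fold (ratio of summit signal to local background), a −log10 p-value, a −log10 q-value and the summit offset, all as computed for the authors. Depth is unknown, so no counting interval was given and the number of libraries limits precision.

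Gene starts came from the GENCODE annotation of GRCm38, and 13 were mitochondrial. Peaks were ranked by deposited fold. The library was the unit in every test: exact permutation tests in Python 3.11.15 with numpy 2.4.6, adjusted by Benjamini-Hochberg within each family at 0.05, and tested on simulated data. Sequences were read with pysam 0.24.0. The replicates were labelled as biological. Members, gene lists and words were chosen with earlier results of these data known. Genes were named by a rule: for each target, contrast and direction the 3 differential promoters of highest median fold, the 10 promoters with most libraries, the 3 with most libraries of each target, list members occupied in 3 of 3 libraries of a condition of β-catenin or SOX2, and Sox2. Others named were chosen after their values were seen. Alternatives were the strongest 1500 peaks, ranking by −log10 p, windows of 1000 bp, any overlap, a stricter q, words within 50 bp, a replicate block and leaving out replicates. Input samples had no list and were not used here.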

Additional observations from a re-analysis of the deposited data

Results flagged for a closer look

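The difference in occupied β-catenin promoters between naive ESC and CEpiLC was larger than that between SOX2-ON and SOX2-OFF. The gap between the lines was −84.3 promoters (−118 against −34.0, adjusted p = 0.025 over 5 targets, exact permutation test of line labels within SOX2 levels, two-sided), with every library of low SOX2 above every library of high SOX2 in both lines. It was singled out because the effect differed between the 2 contrasts in a test of the difference itself. The wild-type contrast was one of medium and stage and the engineered one of doxycycline, so line cannot be told apart from these. The gap was −25.3 with the strongest 1500 peaks, −89.3 with ranking by −log10 p, −100.3 with windows of 1000 bp and −99.7 with any overlap, and it passed under none of these 4. The fold of the last ranked β-catenin peak was 11.6 to 19.3 in naive ESC and 7.73 to 10.6 in CEpiLC, beside 9.20 to 14.1 in SOX2-ON and 4.39 to 12.6 in SOX2-OFF, and its part in the gap was not tested.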

How the results depend on the processing

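Of 567 results recomputed under an alternative, 448 kept their direction and their side of the threshold or their count within the limit, 58 no longer passed, 4 newly passed, 33 counts moved by over 1.5 times and 24 changed sign. The causes were not tested. Read depth is unknown, and the differences in promoter number rest on ranking each list by fold.

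With all peaks, the CpG-rich share for high minus low SOX2 was −12.7 percentage points for LEF1, −6.70 for β-catenin and −4.80 for SOX2, which did not pass, and 0.214 for TCF7L1 and −3.10 for TCF7L2, which changed sign. The within minus between agreement was 0.0238 for SOX2, 0.0246 for LEF1, 0.000378 for TCF7L1 and 0.00685 for TCF7L2 and did not pass. Differential promoters of the naive ESC contrast numbered 384 for SOX2, 323 for β-catenin, 173 for TCF7L1 and 235 for TCF7L2, and those of the doxycycline contrast 351 (SOX2), 137 (β-catenin), 148 (LEF1), 34 (TCF7L1) and 135 (TCF7L2).

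With −log10 q of at least 5, promoter against other folds newly passed at −0.12 (log2) for TCF7L1, −0.073 for LEF1 and −0.19 for β-catenin and changed sign to −0.054 for SOX2, and full-list counts of naive ESC minus CEpiLC changed sign to −0.056 for SOX2 and −0.25 for LEF1. Ranked by −log10 p, the SOX word at SOX2 promoter summits newly passed at −4.59 percentage points, the CpG-rich difference of LEF1 (−14.85) and the line difference of β-catenin (−89.3) did not pass, and the doxycycline contrast gave 20 differential promoters for TCF7L1 and 18 for TCF7L2. With the strongest 1500 peaks, the CpG-rich difference of SOX2 (−10.8), the line difference of β-catenin (−25.3) and the high minus low difference of TCF7L2 (−86.7) did not pass, and the CpG-rich difference of TCF7L2 (−0.0186) and β-catenin minus LEF1 (−5.83) changed sign. With windows of 1000 bp, differential promoters numbered 10 for LEF1 with doxycycline and, for naive ESC, 96 for LEF1 and 54 for TCF7L1, the full-list difference of TCF7L2 changed sign to 0.093, and the β-catenin line difference (−100.3) and the TCF7L1 high minus low difference (−67.5) did not pass. With any overlap these were −99.7 and −51.8 and did not pass, and the TCF7L1 line difference changed sign to 2.33. Within 50 bp the SOX word difference of SOX2 changed sign to 1.45.

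The replicate numbers were not taken as pairs, since in 0 of 10 contrasts did every same-numbered pair correlate above 0.1 (range −0.0496 to 0.186). In the TCF7L1 doxycycline contrast all 3 were above 0.09, and the Tcf7l1 promoter had a summit in 20 of 20 lists numbered 1, against 7 and 13 of 20 for the other numbers. Whether a number marks a shared batch was not tested. With the replicate block the smallest possible p was 0.03125, and after adjustment none of the following passed. The high minus low differences were −256 (SOX2), −76.2 (β-catenin), −88.8 (LEF1), −58.2 (TCF7L1) and −293.5 (TCF7L2), and the CpG-rich differences were −9.55 (SOX2), −13.6 (β-catenin), −18.4 (LEF1) and −12.1 (TCF7L1). The other 36 blocked values were on the side of the threshold given in the report.

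Leaving out 1 replicate number at a time left designs that cannot reach p under 0.05 (smallest p 0.0556 for high against low SOX2). The high minus low difference ranged from −290.0 to −209 (SOX2), −85.0 to −71.8 (β-catenin), −93.5 to −84.8 (LEF1), −83.5 to −39.8 (TCF7L1) and −329 to −255 (TCF7L2). Without LEF1 naive ESC replicate 1 alone it was −80.5 for LEF1, and without TCF7L1 CEpiLC replicate 1 alone the line difference of TCF7L1 was −53.2, and without TCF7L1 SOX2-ON replicate 1 alone the high minus low difference of TCF7L1 was −55.5 and did not pass. Without LEF1 naive ESC replicate 1 β-catenin minus LEF1 changed sign to −2.50. These were chosen after seeing the data. The line difference ranged from −108 to −59.5 for β-catenin and −38.0 to 13.5 for TCF7L1, the doxycycline difference from −270.5 to 29.5 for TCF7L2, −268 to −136 for SOX2, −64.5 to −23.5 for TCF7L1 and −30.5 to −6.50 for LEF1, and β-catenin minus LEF1 from −3.63 to 9.25. On the log2 scale full-list differences ranged from −0.58 to 0.36 (SOX2) and −0.97 to 4.19 (TCF7L1) for naive ESC, −0.44 to 0.69 (SOX2) and −2.29 to 0.030 (TCF7L1) for doxycycline, and −0.51 to 0.50 (SOX2), −0.47 to 1.5 (TCF7L1) and −0.31 to 0.18 (TCF7L2) for high minus low SOX2. The agreement of TCF7L1 ranged from 0.102 to 0.249, the SOX word difference of LEF1 from −12.4 to −8.49, and the CpG-rich difference from −21.2 to −13.9 for LEF1, −10.9 to −8.52 for SOX2, −14.3 to −10.3 for TCF7L1, −0.279 to 0.768 for TCF7L2 and −17.1 to −10.8 for β-catenin. Differential promoters, by the looser rule of 2 of 2 against 0 of 2, numbered 156 to 210 and 91 to 119 for SOX2 (naive ESC and doxycycline contrasts), 25 to 36 for β-catenin (doxycycline), 84 to 113 and 10 to 13 for LEF1, 32 to 58 and 15 to 41 for TCF7L1, and 215 to 271 and 80 to 152 for TCF7L2.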

Other observations

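The Tcf7l1 promoter, which encodes one of the immunoprecipitated proteins, divided the libraries by replicate number. A summit lay in its window, in a coding exon, in 20 of 20 lists of replicate 1, with a median fold of 33.4 and a highest fold of 129, and 15 of these were among the strongest 3000 peaks. Replicate 2 had a summit in 7 of 20 lists with a highest fold of 7.19, and replicate 3 in 13 of 20 with a highest fold of 6.75, none of them among the strongest 3000. This promoter was chosen after its values were seen, and whether folds at a coding exon measure binding of the targets there was not tested.

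The Axin2 promoter, of a feedback inhibitor of WNT signalling, had a β-catenin summit in 1 of 3 libraries of every condition, with folds of 36.3 in naive ESC and 43.5 in CEpiLC, beside 34.4 in SOX2-ON and 28.2 in SOX2-OFF. The median summit of all targets lay 409 bp inside the gene, near the edge of the window, and the gene was chosen after its values were seen. Jag1, which encodes a Notch ligand, was found only in SOX2-ON and not in SOX2-OFF for SOX2, β-catenin and TCF7L2. Its SOX2 folds were 25.7, 24.5 and 24.6 in SOX2-ON and 4.13, 3.46 and 6.31 in SOX2-OFF, and its β-catenin folds were 26.7, 13.5 and 19.2 in SOX2-ON with no summit in SOX2-OFF. In naive ESC the SOX2 folds at Jag1 were 4.59, 9.50 and 11.6.

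Other listed families were occupied at different rates. At least 1 of 60 libraries had a summit in 23 of 67 core histone promoters (34.3%), 12 of 39 Hox promoters (30.8%), 6 of 15 neural promoters (40%), 4 of 14 primed epiblast promoters (28.6%), 2 of 11 endoderm promoters (18.2%), 1 of 12 promoters of feeder fibroblast genes (8.33%) and 13 of 1135 olfactory receptor promoters (1.15%), beside 18.3% of all promoters.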
